A study of Homo sapiens with 14 samples.

Results

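miR-21 is a microRNA (miRNA), a short RNA that guides repression of messenger RNAs, and its hairpin precursor can give 1 mature strand from each arm, miR-21-5p and miR-21-3p. Both were followed in extracellular vesicles (EVs, small membrane-bound particles shed by cells) from human epicardial cell cultures. The members are the 2 rows of the raw count table that carry these names, of 2632 miRNAs in the table, in all 14 libraries. They were chosen by measured values of these same libraries, the higher share of miR-21-5p in FGF than in NT, together with its high mean share. The comparison of FGF with NT is therefore given as a description, without a test. Of the other 5 comparisons, 4 use the FGF or the NT libraries of that choice, so their tests are not independent of it.

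The medium came from pro-epicardial cells made from the human embryonic stem cell line hES-2, which is an established line, thawed and plated without a GFP reporter in supplemented StemPro medium and kept for 8 days. NT cells received nothing further (3 libraries). SB cells were given 6 µM SB-431542, an inhibitor of the TGF-β receptor kinase, for 8 days (4 libraries) and are labelled mature epicardial cells. TGFb cells had 5 ng/ml TGF-β1 for 4 days followed by 4 days without it (4 libraries), and FGF cells had 10 ng/ml basic FGF for 8 days (3 libraries). In every group the medium was passed through a 100 kDa filter from day 4 to lower background vesicles, then collected on days 6 and 8 after 48 h each. All TGFb medium was thus collected in the days without TGF-β1, while SB and FGF cells had their additive throughout. The filter and the polyethylene glycol precipitation that followed are shared by all groups, and all cells come from 1 cell line. The labels do not say whether libraries of a group came from separate cultures, so p-values measure the spread between these libraries, which may be technical.

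miR-21-5p is among the most abundant miRNAs of many cultured cells. In the heart it is known mainly from fibroblasts and from tissue after injury, where it has been studied for its effect on fibrosis. Among its known targets are PDCD4, an inhibitor of translation, and SPRY1, a feedback inhibitor of ERK signalling downstream of receptors such as those for FGF. Its transcription can be driven by AP-1, a factor that ERK signalling activates, and SMAD proteins, which carry the TGF-β signal, have been described to bind the letters CAGAC in the stem of its precursor and to promote processing. The strand that Argonaute proteins keep in most cells is the 5p arm, and the 3p arm is usually degraded.

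The precursor gene, MIR21, lies on chromosome 17 (59841266 to 59841337, plus strand, RefSeq on GRCh38.p14). In GENCODE release 29, also on GRCh38, it falls inside an exon of VMP1-216, a retained-intron transcript of the protein-coding gene VMP1 (59707192 to 59842255, plus strand), and no other VMP1 exon overlaps it. The mature 5p strand spans 59841273 to 59841294. The next sequences are shown because the results turn on them, each with its seed, bases 2 to 8 that pair with targets, in capitals.
miR-21-5p: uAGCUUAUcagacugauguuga
miR-590-5p: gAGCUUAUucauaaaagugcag
miR-143-3p: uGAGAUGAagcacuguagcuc
miR-590-5p is the only other miRNA of the table whose RefSeq sequence has the seed of miR-21-5p, and it had 0 counts in all 14 libraries. The reference used had no mature entry for miR-21-3p, so miRNAs with its seed were not searched. miR-143-3p has another seed and is shown because its levels followed those of miR-21-5p most closely. The hairpins of miR-21 and miR-205 follow, with CAGAC in capitals, since they are the sources of the only tested miRNAs whose precursor holds these letters.
MIR21: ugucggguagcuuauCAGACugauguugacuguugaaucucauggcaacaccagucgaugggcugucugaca
MIR205: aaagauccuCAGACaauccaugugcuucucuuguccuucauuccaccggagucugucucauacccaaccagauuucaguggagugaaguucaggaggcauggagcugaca
In MIR21 the letters are bases 16 to 20 of 72 and fall within the mature strand, at its bases 9 to 13. In MIR205 (chromosome 1, 209432133 to 209432242, plus strand) they are bases 10 to 14 of 110, ahead of the mature miR-205-5p, which begins at base 34.

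The libraries were shallow and unequal, with totals from 115 to 14862 counts, and 447 miRNAs had a count anywhere. No list of markers for epicardial cells themselves was checked. Among markers of other sources, 5 were of red cells and serum. Of these, miR-451a and miR-144-3p had 0 counts, while miR-122-5p (34 counts), miR-486-5p (6) and miR-223-3p (3) were detected. Together the 5 took at most 3.91% of a library (SB replicate 2, 7 counts of miR-122-5p). The highest sums in the other groups were 0.396% in NT, 0.144% in TGFb and 1.74% in FGF. Of 8 pluripotency miRNAs, 6 had 0 counts, and the list took at most 0.0990% of a library. miR-126-3p, an endothelial marker, took 0.0269% to 0.0990% in NT, 0% to 3.91% in SB, 0.0535% to 0.866% in TGFb and 0% to 1.04% in FGF. The 5 epithelial markers took 0.0269% to 1.68% in NT, 0% to 1.71% in SB, 0.0936% to 1.12% in TGFb and 0.123% to 1.73% in FGF. The part of these sources in the results on miR-21 was not tested.

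miR-21-5p was detected in all 14 libraries, with 518 counts in sum and 3 to 169 per library. Its mean share of 2.56% ± 2.18 (SD, n = 14) was the eighth highest of all miRNAs. A share is relative, so more miR-21-5p per vesicle, more vesicles that carry it and less of other miRNAs cannot be told apart. Intervals on single libraries are 95% Wilson intervals and cover counting error only.

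FGF had the highest share of miR-21-5p. It was 6.09% in replicate 2 (7 of 115 counts, 95% interval 2.98% to 12.0%), 5.21% in replicate 3 (169 of 3241, 4.50% to 6.03%) and 6.34% in replicate 4 (55 of 868, 4.90% to 8.16%). These were the 3 highest of the 14 libraries and lay close together, with a mean of 5.88% ± 0.589 (SD, n = 3) and a highest value 1.22 times the lowest. miR-21-5p was the second most abundant miRNA of replicates 3 and 4 and the fourth of replicate 2.

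TGFb fell into a high and a low pair of libraries. miR-21-5p took 3.90% in replicate 2 (9 of 231 counts, 2.06% to 7.24%) and 3.61% in replicate 4 (100 of 2770, 2.98% to 4.37%). It took 0.494% in replicate 1 (7 of 1418, 0.239% to 1.02%) and 0.629% in replicate 3 (47 of 7478, 0.473% to 0.835%). The pairs were told apart after their values were seen, and the intervals of the high pair do not reach those of the low pair. The mean was 2.16% ± 1.85 (n = 4).

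SB lay between 0.706% and 2.90%. The share was 2.90% in replicate 1 (10 of 345 counts, 1.58% to 5.25%), 1.68% in replicate 2 (3 of 179, 0.572% to 4.81%), 0.706% in replicate 3 (27 of 3826, 0.485% to 1.02%) and 1.24% in replicate 4 (16 of 1286, 0.767% to 2.01%). The mean was 1.63% ± 0.934 (n = 4), and the 2 shallow libraries, replicates 1 and 2, were the 2 highest.

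NT held the lowest values and the widest spread relative to its mean (SD of 141% of the mean, against 85.6% in TGFb). The SD itself was larger in TGFb. miR-21-5p took 0.0875% of replicate 1 (13 of 14862 counts, 0.0511% to 0.150%), where it ranked 68th, and 0.296% of replicate 3 (28 of 9462, 0.205% to 0.427%), where it ranked 39th. Replicate 4 had 2.67% (27 of 1010, 1.84% to 3.86%) and rank 6. The mean of 1.02% ± 1.44 (n = 3) was thus set by replicate 4, and without it the mean was 0.192% ± 0.147 (n = 2).

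**Figure D1:**
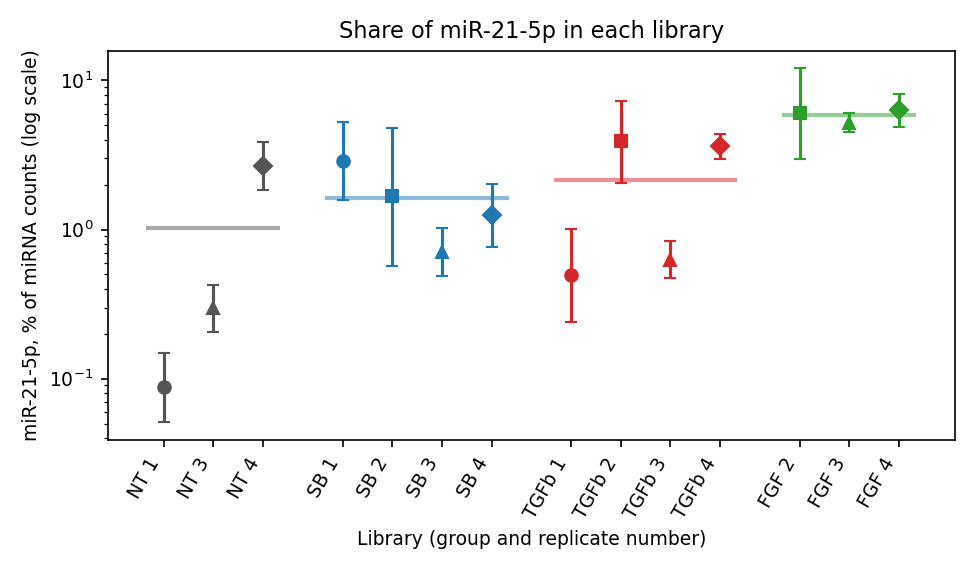
Share of miR-21-5p in percent of miRNA counts (log axis) in each of the 14 libraries, by group and replicate number (circle 1, square 2, triangle 3, diamond 4). Bars are 95% Wilson intervals and horizontal lines are group means; the 3 FGF libraries, 5.21% to 6.34%, are above the other 11, and NT replicate 4 (2.67%) is far above NT replicates 1 and 3.

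By group means the order was FGF, TGFb, SB and NT. The neighbours TGFb and SB, and SB and NT, overlapped in their libraries, and the differences between their means were smaller than the SD of either group. FGF did not overlap with any group. Between FGF and NT, 8.51% of the 47 tested miRNAs had FGF higher with no overlap, and miR-21-5p, chosen for this comparison, was 1 of them. FGF lay above all 11 other libraries for 2 of the 47 (4.26%), miR-21-5p and miR-143-3p. Summing the counts of each group gave the same order, 5.47% in FGF, 1.37% in TGFb, 0.994% in SB and 0.268% in NT.

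The 6 pairs of groups were then compared with a single fit over the 47 miRNAs that passed a filter on low counts (edgeR's quasi-likelihood test, Benjamini-Hochberg adjustment over the 47, threshold 0.05). miR-21-5p passed the filter. Comparisons that have NT, or FGF, in common share those libraries.

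Basic FGF against no additive was the difference that led to the choice of this miRNA. The share of miR-21-5p was 5.77 times as high in FGF by group means. In the fit the log2 fold change was 2.42 (SE 0.86), beside a median of −0.0011 over the 47. Of the 47, 1 passed in this comparison (2.13%), and nothing is read from this for miR-21-5p. Within replicate numbers, FGF was 17.6 times as high in number 3 and 2.37 times as high in number 4. The distance depended on NT replicate 4: without it the log2 fold change was 4.40 (SE 0.86).

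Basic FGF was also set against the TGF-β receptor inhibitor. The 3 FGF libraries (5.21% to 6.34%) were all above the 4 SB libraries (0.706% to 2.90%), as was the higher group for 8.51% of the 47. The log2 fold change was 1.72 (SE 0.79) and did not pass (edgeR adjusted p = 0.704, with 0.0% of the 47 passing). FGF was higher in 3 of 3 shared replicate numbers, which follows from the lack of overlap and adds nothing to it. The ratios were 3.63, 7.39 and 5.09 in numbers 2 to 4. A fit of only these 2 groups gave 1.90 (SE 0.57) with an edgeR adjusted p of 0.0132, in a range from 0.0132 to 0.885 over all alternatives. Because the FGF level led to the choice of miR-21-5p, this value gives no independent support.

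TGFb was lower than FGF in every library, with its highest share at 3.90% and the lowest of FGF at 5.21%. TGFb was the lower group without overlap for 10.6% of the 47. The log2 fold change of TGFb against FGF was −1.11 (SE 0.77) and did not pass (edgeR adjusted p = 0.679, with 0.0% of the 47 passing). TGFb was below FGF in 3 of 3 shared numbers, which follows from the lack of overlap. The FGF libraries in this comparison and in that with SB are those whose level led to the choice of miR-21-5p.

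TGF-β1 against no additive gave overlapping groups, 0.494% to 3.90% in TGFb and 0.0875% to 2.67% in NT. The log2 fold change was 1.31 (SE 0.81, normal 95% interval −0.27 to 2.89) and did not pass (edgeR adjusted p = 0.935, with 0.0% of the 47 passing). In each of the 3 shared replicate numbers TGFb was higher, by 5.64 times in number 1, 2.12 times in number 3 and 1.35 times in number 4. Without NT replicate 4 the log2 fold change was 3.26 (SE 0.80), with an edgeR adjusted p of 0.00816 in a range from 0.00816 to 0.985 over all alternatives. That value rests on the 2 lowest NT libraries, and the low NT level was part of the choice of miR-21-5p, so it gives no independent support.

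SB against NT also overlapped, and the log2 fold change of 0.69 (SE 0.82, normal 95% interval −0.91 to 2.30) did not pass (edgeR adjusted p = 0.706, where 2.13% of the 47 passed). SB was higher than NT in 2 of 3 shared numbers, by 33.1 times in number 1 and 2.38 times in number 3, and NT was 2.15 times as high in number 4. Without NT replicate 4 the difference was 2.62 (SE 0.79), with an edgeR adjusted p of 0.0192 in a range from 0.0192 to 0.995 over all alternatives, and it rests on the same 2 NT libraries. Without NT replicate 1 it was −0.065.

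TGF-β1 was also set against its receptor inhibitor, and the groups overlapped. TGFb vesicles were collected after TGF-β1 had been withdrawn, and SB vesicles with the inhibitor still present. The contrast is therefore not one of active against blocked signalling during collection. The log2 fold change of TGFb against SB was 0.62 (SE 0.75, normal 95% interval −0.85 to 2.09) and did not pass (edgeR adjusted p = 0.898, with 0.0% of the 47 passing). TGFb was higher in numbers 2 and 4, by 2.32 and 2.90 times, and SB was higher in numbers 1 and 3, by 5.87 and 1.12 times. Without TGFb replicate 4 the log2 fold change was −0.056.

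**Figure D2:**
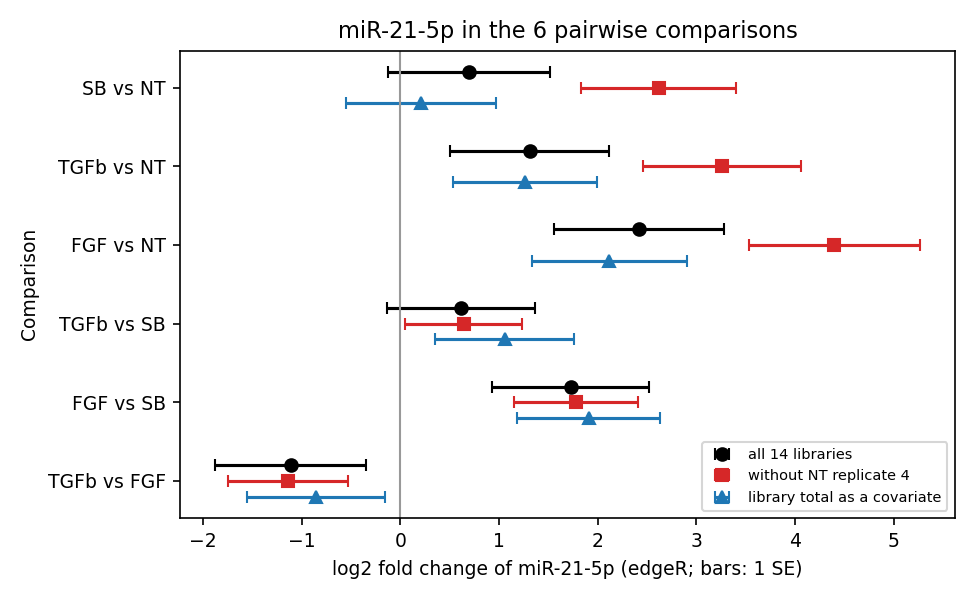
log2 fold change of miR-21-5p in the 6 comparisons (first group over second), with bars of 1 SE from edgeR, for all 14 libraries (black circles), without NT replicate 4 (red squares) and with the log10 library total as a covariate (blue triangles). Leaving out NT replicate 4 moves the 3 comparisons with NT to 2.62, 3.26 and 4.40 and leaves the other 3 near their first values.

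Depth moved with the share of miR-21-5p. The 2 deepest libraries, NT replicates 1 and 3, had the lowest shares, while counts of miR-21-5p grew less than totals did. Across the 14 libraries the share fell as the log10 total rose (Spearman rho = −0.679, permutation p = 0.00908, adjusted p = 0.0182 over the 2 relations examined, and Pearson r = −0.553, permutation p = 0.0419, adjusted p = 0.0838). Without NT replicate 1 and FGF replicate 2, the totals farthest from the median, rho was −0.517 (permutation p = 0.0887) and r was −0.329 (permutation p = 0.290), so the relation had the same sign and did not pass. In the 10 libraries of at least 500 counts rho was −0.721 (permutation p = 0.0235), and rho of the shares and totals of the authors' adjusted values was −0.578 (permutation p = 0.0337). A share has the total as its denominator, so the measures are not independent. The choice of miR-21-5p used its FGF and NT shares, and NT holds the 2 deepest libraries. The p-values over libraries of different groups are therefore not independent of that choice. Taken as deviations from group means rho was −0.675 (permutation p = 0.00997), and as deviations from the means of the replicate numbers −0.609 (permutation p = 0.0237). Among the 11 libraries outside FGF, a setting chosen after the values were seen, rho was −0.755 (permutation p = 0.00979). Pearson r was weaker in part of these settings. It was −0.227 for the adjusted values (permutation p = 0.465) and −0.543 in libraries of at least 500 counts (permutation p = 0.107). As deviations from means of the replicate numbers r was −0.465 (permutation p = 0.0968), and from group means −0.657 (permutation p = 0.0131). Outside FGF r was −0.660 (permutation p = 0.0318).

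Among libraries of like depth, TGFb replicate 4 (2770 counts) had 3.61%, FGF replicate 3 (3241) 5.21% and SB replicate 3 (3826) 0.706%. At lower depth, FGF replicate 4 (868 counts) had 6.34% and NT replicate 4 (1010) 2.67%. SB replicate 4 (1286) had 1.24% and TGFb replicate 1 (1418) 0.494%. In that set NT was above SB and TGFb, unlike in the order of group means. The library total was then used as a covariate in the fit. FGF was higher by a log2 fold change of 2.12 (SE 0.79) than NT and of 1.91 (SE 0.72) than SB. SB was higher than NT by 0.21 (SE 0.76). TGFb was higher than NT by 1.26 (SE 0.73) and than SB by 1.06 (SE 0.71). Against FGF, TGFb was at −0.85 (SE 0.70). The part of depth in the differences from NT was not tested beyond this, and NT holds both libraries with the largest totals.

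**Figure D3:**
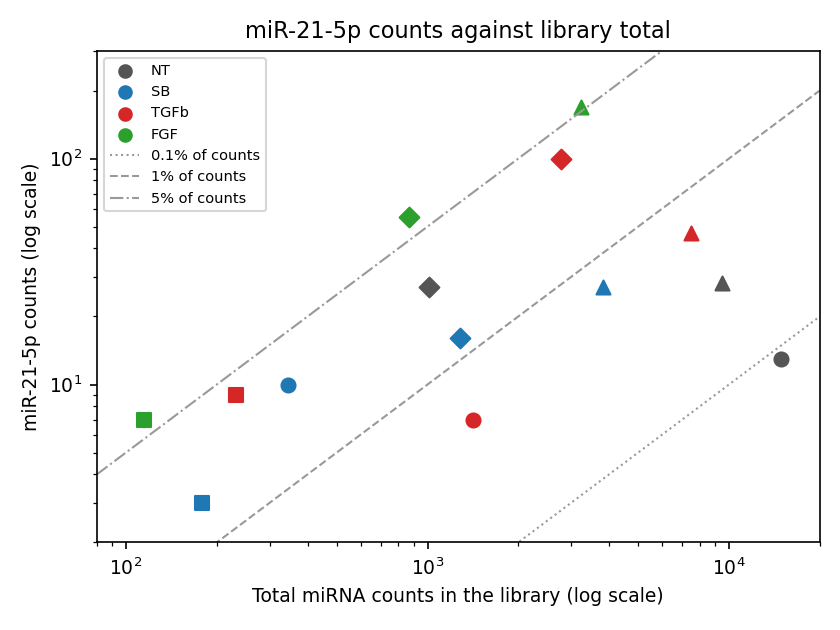
Counts of miR-21-5p against the total miRNA counts of each library (both log axes), coloured by group, with symbols for replicate number as in the plot of shares. Grey lines mark 0.1%, 1% and 5% of counts; the FGF libraries lie above the 5% line at 115, 868 and 3241 counts, and NT replicate 1 lies under the 0.1% line at 14862.

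The 3p arm was rare. miR-21-3p had 8 counts in all, 4 in FGF replicate 3 (0.123%, 0.0480% to 0.317%), 2 in TGFb replicate 4 (0.0722%, 0.0198% to 0.263%) and 2 in NT replicate 4 (0.198%, 0.0543% to 0.719%). The other 11 libraries had 0 counts, which by the limit of 3 counts of the total allows a share of up to 0.0202% in NT replicate 1, the deepest, and up to 2.61% in FGF replicate 2, the shallowest. The 2 libraries with the most miR-21-5p counts, FGF replicate 3 and TGFb replicate 4, were among the 3 with miR-21-3p. It did not pass the filter on low counts, and with at most 4 counts in a group no fold change between groups is given. Its share showed no relation to the log10 total that these data could detect (Spearman rho = 0.0887, permutation p = 0.771, n = 14; Pearson r = 0.0765, permutation p = 0.810).

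Together the arms gave 526 counts, of which miR-21-3p was 1.52% (95% Wilson interval 0.773% to 2.97%). The 3p arm was 2.31% of the locus in FGF replicate 3 (4 of 173, 0.903% to 5.79%), 1.96% in TGFb replicate 4 (2 of 102, 0.539% to 6.87%) and 6.90% in NT replicate 4 (2 of 29, 1.91% to 22.0%). These intervals overlap, and 0 of 55 in FGF replicate 4 and 0 of 47 in TGFb replicate 3 allow up to 5.45% and 6.38% by the limit of 3 counts, or 6.53% and 7.56% as upper Wilson limits. A difference in arm use between groups was not detectable at this depth.

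Of 268 hairpins with both arms in the table under matching names and a count on either, MIR21 ranked seventh by counts. miRNAs without a matching name for the other arm were left out of this ranking. Among them were miR-92a-3p (1774 counts) and miR-125b-5p (844), both with more counts than MIR21. The 5 with most counts among the 268 were miR-483 (27.4% from the 3p arm), miR-125a (0.172%), miR-99b (5.19%), let-7e (0 of 1323 counts) and miR-423 (24.1%). Of the 36 hairpins with at least 100 counts, the minor arm took a smaller share than that of miR-21 in 24 and a larger share in 11. The strong lead of 1 arm at MIR21 was thus the usual case here.

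Patterns over the libraries were compared by Spearman's rho of log2 CPM (each count as a rate per TMM-scaled total, prior count 2) among the 47 tested miRNAs. All values of a library share its total and replicate number, so rho is given as a description over 14 libraries. The most alike was miR-143-3p (rho = 0.846), a miRNA of smooth muscle and other mesenchymal cells. Next were miR-30a-5p (0.585), a miRNA of many tissues, miR-34a-5p (0.579), which p53 induces, miR-16-5p (0.525), which restrains the cell cycle, and let-7b-5p (0.499), of the let-7 family of differentiated cells. No seed was shared between any of the 5 and miR-21-5p. miR-483-3p, from an intron of IGF2, had the lowest rho (−0.873) and was singled out after its value was seen.

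miR-143-3p had 161 counts. Its share was 2.61%, 2.28% and 1.84% in FGF replicates 2 to 4 (3, 74 and 16 counts), and every other library was at 1.68% or less. The value of 1.68% was SB replicate 2, with 3 of 179 counts. No intervals were computed for these shares, and at such counts the lead of FGF over SB replicate 2 is not firm. miR-143-3p had 0 counts in NT replicate 1, 6 in NT replicate 3 and 9 in NT replicate 4. The last was a share of 0.891%, so that NT replicate 4 stood above the other NT libraries here as well. After group means were subtracted, rho with miR-21-5p was 0.886, and in the 11 libraries outside FGF it was 0.773.

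**Figure D4:**
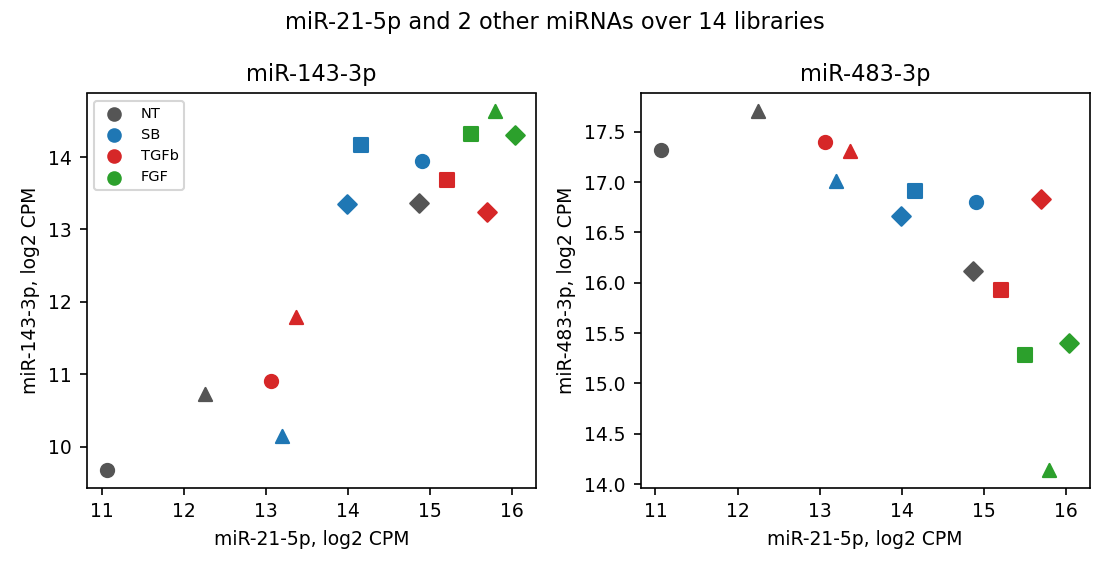
log2 CPM of miR-143-3p (left) and miR-483-3p (right) against log2 CPM of miR-21-5p in 14 libraries, coloured by group, with symbols for replicate number as in the plot of shares. miR-143-3p goes up with miR-21-5p (rho 0.846) and miR-483-3p goes down (rho −0.873); NT replicates 1 and 3 are at the low end of miR-21-5p and FGF at the high end.

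Other miRNAs tied to the signals that can raise miR-21 were taken from 3 lists. The letters CAGAC, searched on the hairpin's own strand, occur in 123 of 1560 RefSeq hairpins (7.88%). The RefSeq reference used had no mature entry for miR-21-3p, so it is not counted in this list. By that reference the hairpins with CAGAC give 159 mature miRNAs of the table, of which 23 had a count. Of these, 2 were tested, miR-21-5p and miR-205-5p, an epithelial miRNA. Neither passed in TGFb against NT or TGFb against SB in edgeR (0 of 2 with an unadjusted p under 0.05, and 0 of 2 called by DESeq2). For miR-205-5p the log2 fold changes were −0.12 (SE 1.85) in TGFb against NT and −0.081 (SE 1.70) in TGFb against SB, beside medians of 0.094 and −0.081 over the 47. Of its 50 counts, 39 were in the 4 libraries numbered 4 (11 in NT, 11 in SB, 11 in TGFb and 6 in FGF). The next by counts were miR-146a-5p (138 counts in 10 libraries), miR-3615 (51 in 8) and miR-199a-3p (46 in 8), none of which passed the filter on low counts.

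Of 18 miRNAs often studied in cardiac fibrosis and wound repair besides miR-21, 17 had a count and 2 were tested, miR-143-3p and miR-34a-5p. In edgeR 0 of 2 passed in any of the 6 comparisons, and DESeq2 called 0. Of the 2, 1 had an unadjusted p under 0.05, miR-143-3p in FGF against NT, where 8 of the 47 did. Their median log2 fold change was 2.41 in FGF against NT, where the 47 had −0.0011, 0.85 in TGFb against NT (0.094 over the 47) and 0.82 in SB against NT (−0.043 over the 47). The log2 fold change of miR-143-3p in FGF against NT was 2.94 (SE 1.32).

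Of 6 miRNAs induced through ERK and AP-1 besides miR-21, 5 had a count and miR-221-3p alone was tested. It passed in 0 of 6 comparisons (edgeR, with 0 at an unadjusted p under 0.05 and 0 called by DESeq2). Its log2 fold change was −0.34 (SE 1.00) for FGF against NT and −0.093 (SE 1.01) for FGF against SB, beside 2.42 and 1.72 for miR-21-5p.

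A second table of the authors holds adjusted values, and miR-21-5p was changed there by replicate number. In the 4 libraries numbered 3 the adjusted value was 1.82 to 1.93 times the raw count, and in the 3 numbered 1 it was 1.30 to 3.46 times. In the 4 numbered 4 it was 0.438 to 0.630 times, and in the 3 numbered 2 it was 0.714 to 1.00 times. In FGF the 3 values moved from 7, 169 and 55 to 5, 308 and 26, and in NT from 13, 28 and 27 to 45, 54 and 17. The values of miR-21-3p were the same in both tables.

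The FGF libraries, close together in the raw counts, were spread out by the adjustment, to 4.35%, 9.57% and 3.58% of the adjusted totals. The mean in FGF was 5.83% ± 3.26 (SD, n = 3) there, and the NT mean was 0.971% ± 0.873 (n = 3). The SB mean was 1.79% ± 1.17 (n = 4) and the TGFb mean 1.93% ± 0.778 (n = 4), so the order of the 4 means was that of the raw table. TGFb replicates, with 0.494% to 3.90% in the raw counts, came closer together, to 1.13% to 2.79%.

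**Figure D5:**
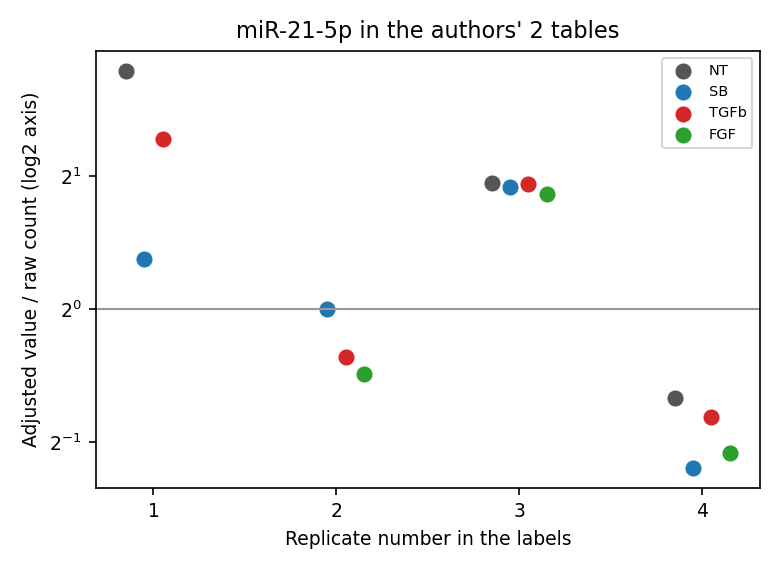
Ratio of the authors' adjusted value to the raw count of miR-21-5p (log2 axis, grey line at 1) in each library, by the replicate number in the labels and coloured by group. Values for number 3 are raised by 1.82 to 1.93 times in all 4 groups, and those for number 4 are lowered to 0.438 to 0.630 times.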

How the data were processed

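Small RNA of EVs was sequenced from 14 samples. Per the labels' protocols, the miRNeasy Micro kit was used for extraction and the QIAseq miRNA kit for library construction. Per the submitters' processing notes, the build was GRCh38. The aligner, the miRNA annotation and any use of molecular identifiers are not given in the sources used here. The authors' deposited raw table holds whole-number counts. Their second table holds adjusted values, treated as a score, since no source used here says how the authors made them, and its 2 lines that name no miRNA were left out. Its 14 deposited columns of CPM per library and 4 of group means were not used.

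Counts were fitted with edgeR 4.0.16 in R 4.3.3 (TMM, filterByExpr with groups and min.count 10, glmQLFit with robust estimation), all 14 libraries in 1 fit on group means. The standard error was the absolute log2 fold change over the square root of F. Depth relations used 100000 permutations, two-sided (scipy 1.17.1). Alternatives used DESeq2 1.42.0 and limma 3.58.1, other scalings and filters, and each library left out. The fit was tested on simulated data. Of 2632 names, 2349 matched RefSeq miRNAs.

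The members, lists and tests were chosen with earlier results of these data known. Named miRNAs were the members, those sharing the seed of miR-21-5p, the 5 most alike by rho, and list members past the threshold or with the smallest p. Also named were the 5 hairpins with most counts among those with both arms under matching names. miR-483-3p, miR-92a-3p, miR-125b-5p and further members of the CAGAC list were named after their values were seen. Depth ran from 115 to 14862 counts, so 1 library's share is as precise as its Wilson interval.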

Additional observations from a re-analysis of the deposited data

Results flagged for a closer look

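Of 3 sets of 4 values searched for a distant library (miR-21-5p in SB and TGFb, miR-21-3p in TGFb), 1 stood apart. The share of miR-21-3p in TGFb replicate 4 was 0.0722%, while the other 3 TGFb libraries had 0 counts. Chance marks about 1 set in 20, but that rate cannot be applied to a set whose other 3 values are all 0. The flagged value rests on 2 of 2770 counts.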

How the results depend on the processing

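The log2 fold changes of miR-21-5p kept their direction in all 11 settings other than leaving out a library. They ran from 2.12 to 2.88 for FGF over NT. With the range of adjusted p in edgeR, DESeq2 or limma, they ran from 0.038 to 1.34 for SB over NT (0.381 to 0.995), from 0.96 to 1.50 for TGFb over NT (0.508 to 0.985), from 0.16 to 1.06 for TGFb over SB (0.703 to 0.994), from 1.54 to 2.41 for FGF over SB (0.0132 to 0.831) and from −1.55 to −0.85 for TGFb over FGF (0.264 to 0.855). The call gained was FGF over SB with only the 2 groups in the fit (1.90, edgeR adjusted p = 0.0132), on the FGF libraries that led to the choice of miR-21-5p. The library total as a covariate, edgeR on adjusted values, the libraries outside FGF and totals without miR-483 were settings chosen after seeing the data.

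With each library left out in turn, the ranges were −0.065 to 2.62 for SB over NT, 0.62 to 3.26 for TGFb over NT, 1.79 to 4.40 for FGF over NT, −0.056 to 1.21 for TGFb over SB, 1.43 to 2.10 for FGF over SB and −1.74 to −0.80 for TGFb over FGF. The highest value of each comparison with NT came without NT replicate 4, and its cause was not tested. SB over NT reversed without NT replicate 1 and TGFb over SB without TGFb replicate 4.

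Same-numbered libraries of different groups deviated together at a mean correlation of 0.307 over 18 pairs (0.0057 to 0.628), and 15 were above 0.1. Pairs with different numbers were not compared, so whether this sharing goes with replicate number was not tested. Totals differed by number as well, with 115 to 231 counts in number 2 and 3241 to 9462 in number 3. The main fit has no block because the labels do not say what the number marks. With the replicate block the log2 fold changes were 1.34 for SB over NT, 1.50 for TGFb over NT, 2.88 for FGF over NT, 0.16 for TGFb over SB, 1.54 for FGF over SB and −1.38 for TGFb over FGF, and the block changed none of the 5 tested calls of miR-21-5p. Over the 47 miRNAs it raised the calls from 1 to 2 for FGF over NT and from 0 to 3 for TGFb over SB, 1 for FGF over SB and 2 for TGFb over FGF.

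Across these settings the calls over all tested miRNAs ran from 0 to 3 for SB over NT (1 in the fit reported), 0 to 4 for FGF over NT (1), 0 to 3 for TGFb over SB (0), 0 to 2 for FGF over SB (0) and 0 to 4 for TGFb over FGF (0), with 0 throughout for TGFb over NT. Spearman's rho of share with total kept its sign in all 6 other settings and did not pass without the 2 farthest libraries (rho = −0.517, permutation p = 0.0887). Pearson r kept its sign too. Of these settings, its permutation p was under 0.05 only as deviations from group means and outside FGF. With miR-483 left out of the totals, the mean share was 7.14% in FGF, 3.01% in TGFb, 2.32% in SB and 1.36% in NT. Alternatives for fold changes of miR-21-3p were not run, since 8 counts allow none. Libraries of 115 to 345 counts leave intervals of several percent.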
